A study of Rattus norvegicus with 12 samples.

Results

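The 10 genes described here are ubiquitin ligases and FoxO pathway genes of muscle atrophy, namely Trim63, Fbxo32, Fbxo30, Fbxo40, Cblb, Foxo1, Foxo3, Bnip3, Map1lc3b and Gadd45a. They were taken by gene symbol from the 30206 genes of the deposited table, where each symbol stood under 1 Ensembl identifier, and all 10 were among the 14599 genes with enough counts to be tested. The study sequenced mRNA from the rat pubocaudalis, which belongs to the pelvic floor, after simulated birth injury (SBI), in which a balloon is distended in the vagina of a pregnant rat. The comparison asks how the injured muscle differs between rats that nursed their pups and rats that did not. All groups were 3-month-old Sprague-Dawley females that carried the same injury, made on day 20 of gestation, and uninjured muscle was not analysed here. The 1wk SBI and 3wk SBI groups had their pups removed after birth and were sampled 1 or 3 weeks after SBI, and the 1wk SBI + Lac and 3wk SBI + Lac groups kept nursing their pups. Pup removal and the absence of lactation cannot be told apart in this design. Each library held the pooled RNA of 2 rats, with 3 libraries per group and 12 in all, so that every n counts pools. The labels name different rats for each pool, whereas the study calls the pools technical replicates, and p-values measure the spread between pools.

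Muscle loses protein largely through the ubiquitin-proteasome system, in which a ligase marks a protein for degradation, and through autophagy, in which membrane vesicles carry cell contents to the lysosome. FoxO transcription factors can switch on genes of both routes when signalling through insulin, IGF-1 and Akt is low, and glucocorticoids act on several of the same genes. Trim63 (MuRF1) and Fbxo32 (atrogin-1) are the best known of these ligases and are widely used as readouts of muscle atrophy.

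The promoters of 2 of the genes are shown because they carry letters that FoxO factors, the glucocorticoid receptor or hypoxia-responsive factors are known to bind. Sequences are from RefSeq on build GRCr8, and 8 of the 10 genes had an entry, with no entry for Fbxo32 and Foxo3. Each run gives the 250 bases before the annotated start, 5′ to 3′ on the strand of the gene, with the motifs in capitals. The Trim63 run lies at chr5:151816986-151817235 on the plus strand and that of Bnip3 at chr1:203154963-203155212 on the minus strand.
Trim63: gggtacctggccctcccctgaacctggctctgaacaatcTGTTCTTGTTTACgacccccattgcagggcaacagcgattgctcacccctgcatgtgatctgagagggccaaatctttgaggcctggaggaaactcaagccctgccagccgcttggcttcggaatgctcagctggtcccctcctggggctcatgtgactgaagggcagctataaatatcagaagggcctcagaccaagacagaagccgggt
Bnip3: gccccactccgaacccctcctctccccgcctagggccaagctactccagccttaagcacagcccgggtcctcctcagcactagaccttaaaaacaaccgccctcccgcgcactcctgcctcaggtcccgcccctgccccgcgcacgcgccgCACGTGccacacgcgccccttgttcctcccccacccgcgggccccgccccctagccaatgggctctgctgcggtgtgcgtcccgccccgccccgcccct
In Trim63 the capitals hold TGTTCT at -211 to -206, which reads AGAACA, a glucocorticoid receptor half-site, on the other strand. They are directly followed by TGTTTAC at -205 to -199, which reads GTAAACA, a FoxO motif, on the other strand. The pair in this arrangement was noticed after the sequence was read, and it stood in 2 of 33469 promoters (0.00598%), those of Trim63 and LOC108348899. In Bnip3 the capitals mark CACGTG, an E-box at -99 to -94, which contains the hypoxia response core ACGTG. Both strands of each window of 250 bases before and 50 after the start were searched. GTAAACA was found in 1 of the 8 promoters and in 3.78% of all promoters, AGAACA in 1 of 8 and 20.7%, ACGTG in 3 of 8 (Fbxo30, Bnip3 and Cblb) and 19.3%, CACGTG in 1 of 8 and 6.42%, and TTGCATCA, a composite motif of ATF4, in 0 of 8 and 0.795%. None of these letters stood in the windows of Map1lc3b, Gadd45a, Fbxo40 or Foxo1.

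Library totals ran from 10082734 to 75634391 counts, and the 10 genes had between 116 and 26320 counts per library. Levels are given as normalized CPM, meaning counts put on one library-size scale by TMM in edgeR, for replicates 1, 2 and 3 in that order. Mature myofiber markers identified the tissue, with 11 of 12 listed genes in the table and none at 0 in any group. Their summed level also differed between the groups, running in normalized CPM from 91490 to 146400 for 1wk SBI, 147200 to 176200 for 1wk SBI + Lac, 142200 to 194100 in 3wk SBI and 211700 to 242300 in 3wk SBI + Lac. The 6 regenerating myofiber markers summed to 1509 to 3468, 777 to 1212, 220 to 741 and 166 to 198 in the same order, and the 6 fibroblast markers to 5746 to 8308, 3400 to 6350, 2804 to 6380 and 1695 to 2446. The 7 macrophage markers summed to 445.5 to 452, 273.5 to 372, 317 to 731 and 295 to 506.5, and the 4 red blood cell markers to 242 to 414, 556 to 779.8, 97.3 to 183 and 132 to 242. In whole muscle, fewer cells of a type and less RNA per cell cannot be told apart. 1wk SBI replicate 3 stood apart from the other 1wk SBI libraries, with the highest myofiber sum of its group (146400 against 91490 and 102600), and without it the number of genes called at 1 week went from 83 to 921. Without any other 1-week pool the number fell, to between 2 (without 1wk SBI + Lac replicate 1) and 26 (without 1wk SBI + Lac replicate 3). The 1-week calls thus depended on each single pool.

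**Figure D1:**
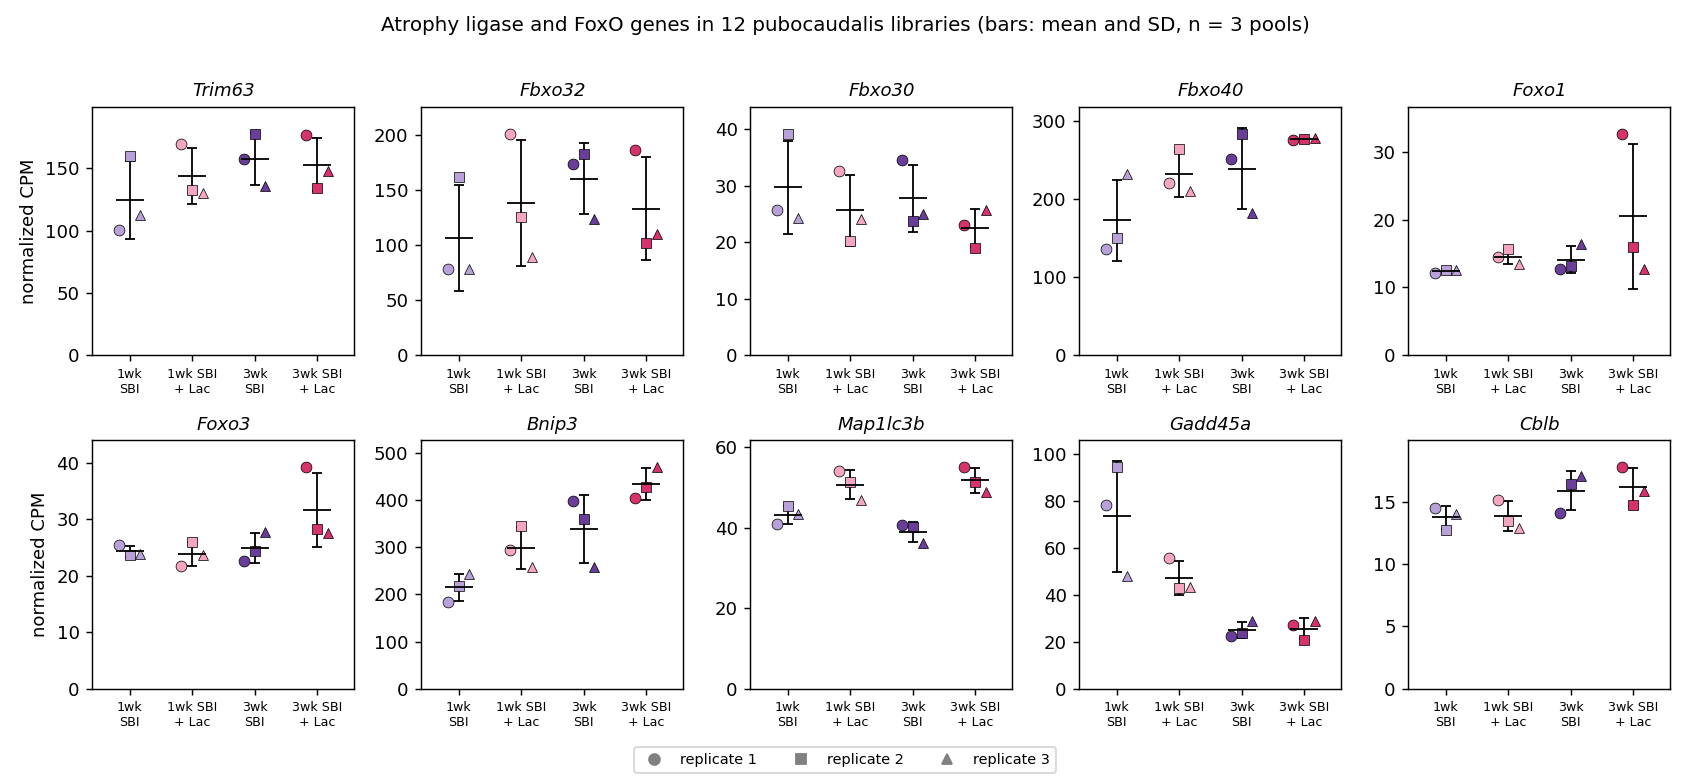
Normalized CPM of the 10 genes (y axes, each from 0) in the 4 groups (x axes). Symbols are the 3 pools of each group and bars the mean and SD. Gadd45a was high in 1wk SBI and low in both 3-week groups, and Foxo1 had 1 high library in 3wk SBI + Lac. Bnip3 and Map1lc3b were higher in lactating groups on this TMM scale. Scaled to mature myofiber markers, their estimates lay below 0 (-0.38 to -0.04) and none was called.

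At 1 week, none of the 10 genes passed an adjusted p of 0.05 between 1wk SBI + Lac and 1wk SBI in edgeR's quasi-likelihood test with Benjamini-Hochberg adjustment over all genes, where 0.569% of genes did. Without adjustment 4 of the 10 had a p under 0.05, namely Fbxo40, Bnip3, Map1lc3b and Gadd45a, against 18.9% of all genes tested. DESeq2 called 0 of the 10 on all 12 libraries, where it called 5.85% of all genes, and 1, Bnip3, on the 6 libraries of 1 week, where it called 9.20%. The pools of the groups did not overlap for 3 genes, Foxo1, Bnip3 and Map1lc3b, against 28.4% of all genes. With lactation 7 of the 10 genes had higher estimates and 3 had lower ones, and their median log2 fold change was 0.22, beside -0.0038 over all genes. Without 1wk SBI replicate 3, 2 of the 10 passed, Fbxo40 and Gadd45a, against 6.22% of all genes. Neither passed when another 1-week library was left out instead.

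At 3 weeks, 1 of the 10 genes passed, Map1lc3b, which was higher with lactation, where 2.54% of all genes passed. Without adjustment 3 of the 10, Foxo3, Bnip3 and Map1lc3b, had a p under 0.05, against 21.1% of all genes. Pools did not overlap for Bnip3 and Map1lc3b, 2 of the 10, against 22.3% of all genes. Again 7 estimates were higher and 3 lower, with a median log2 fold change of 0.11 beside -0.02 over all genes. The 1-week and 3-week effects were also tested against each other. None of the 10 genes differed between time points in that test, where 1 gene in all (0.00685%) did. None had an unadjusted p under 0.05, against 645 of 14599 genes. DESeq2 called 0 of the 10 as well, and 15 of 20000 genes in all. No gene of the 10 passed with an added cutoff of 1 on the absolute log2 fold change at either time point. Of all 14599 genes, 37 passed it at 1 week and 108 at 3 weeks.

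**Figure D2:**
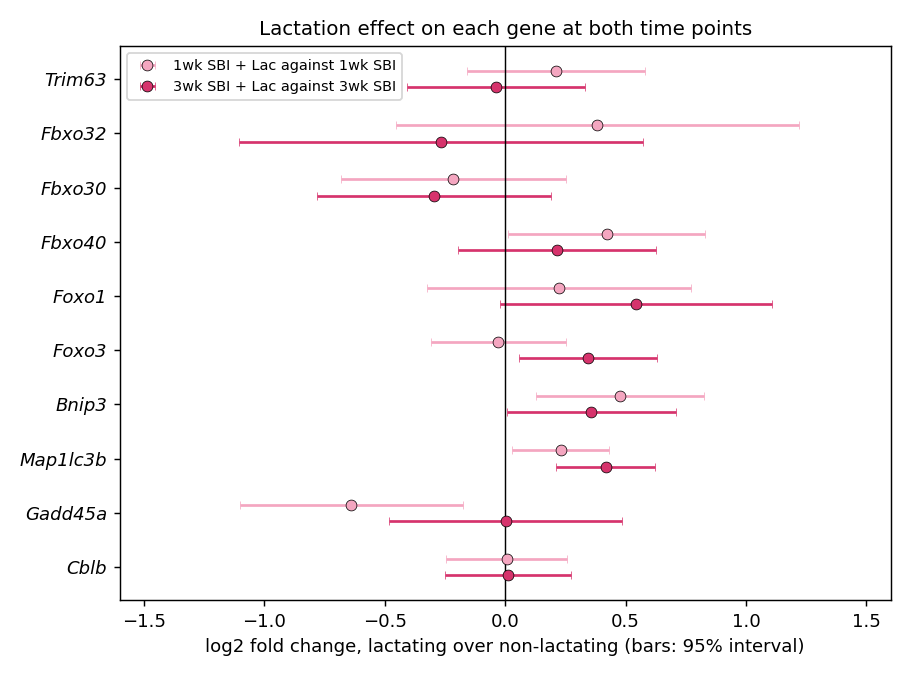
Log2 fold change of lactating over non-lactating rats (x axis) for the 10 genes (y axis) at 1 week (light) and 3 weeks (dark), with 95% intervals from edgeR. The interval of Map1lc3b at 3 weeks, 0.21 to 0.62, lies farthest from 0 relative to its width, and those of Fbxo32 are the widest.

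Among the ligases, Trim63 (ENSRNOG00000016543), which marks myosin and other thick filament proteins for degradation, was expressed in every library with no called difference. At 1 week its normalized CPM were 100.5, 160 and 112 without lactation, and 169.8, 132 and 129.8 with it. At 3 weeks they were 157, 178 and 136 without and 176, 134 and 148 with lactation. The groups overlapped at both times, and the lowest and the highest pool, 100.5 and 178, were both non-lactating. The log2 fold change with lactation was 0.21 at 1 week, with a standard error of 0.17 and a 95% interval of -0.16 to 0.58 (adjusted p = 0.530, edgeR), and -0.04 at 3 weeks (standard error 0.17, 95% interval -0.41 to 0.33, adjusted p = 0.928). Differences up to these bounds in either direction cannot be told from no change with these pools.

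Fbxo32 (ENSRNOG00000006738), the substrate-binding part of an SCF ligase that targets factors of translation and muscle differentiation, varied more between pools. At 1 week it had 78.3, 162 and 78.6 normalized CPM without lactation and 202, 125.5 and 89.0 with it. In 3wk SBI the values were 174, 183.5 and 124, and in 3wk SBI + Lac 187, 102 and 110.1. Pools of the same group thus differed more than the group means did, and the SD over 12 libraries on the log2 scale, 0.495, was larger than that of 93.8% of genes tested, whereas the SD of Trim63, 0.255, exceeded 59.2% of them. The lactation effect was 0.38 at 1 week (95% interval -0.45 to 1.22, adjusted p = 0.620, edgeR, standard error 0.38) and -0.27 at 3 weeks (standard error 0.38, 95% interval -1.10 to 0.57, adjusted p = 0.729). An Ensembl identifier without a symbol, ENSRNOG00000065676, followed Fbxo32 more closely than any gene with a symbol. It was picked after its values were seen. Its counts were 123% to 153% of those of Fbxo32 in each library and the root mean square difference of the centred log2 profiles was 0.0905, so that Fbxo32 is uncertain if the counting split reads between them, which was not tested.

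Trim63 and Fbxo32 ranked the 3 pools of a group in the same order in all 4 groups. They were the 1 pair of 45 among the 10 genes to do so, while 2 pairs shared the order in 3 groups, 8 in 2, 10 in 1 and 24 in 0. Among all genes tested, 25 of 14598 (0.171%) ranked the pools as Trim63 did in every group. The pools with the highest values of both were 1wk SBI replicate 2, 1wk SBI + Lac replicate 1, 3wk SBI replicate 2 and 3wk SBI + Lac replicate 1. Fbxo32 moved further than Trim63, with a ratio of Fbxo32 to Trim63 from 0.685 in 1wk SBI + Lac replicate 3 to 1.19 in 1wk SBI + Lac replicate 1. By the root mean square difference of centred log2 CPM over 12 libraries among 13968 genes with a symbol, Trim63 was the nearest gene to Fbxo32 (0.263), and AABR07046657.1, Abcb1b and Atosa were also among the nearest (0.289 to 0.308). The genes nearest to Trim63 included Znrd1as1, Tcp11l2, Phip and Zfand5 (0.12 to 0.129). These likenesses are descriptions across 12 libraries that share their depth and makeup.

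**Figure D3:**
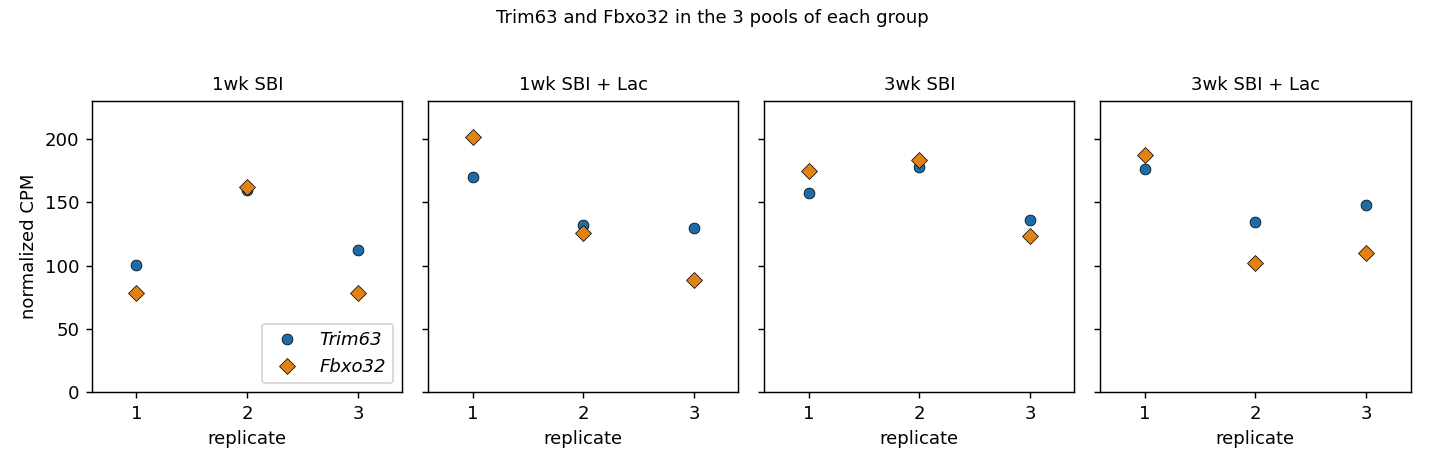
Normalized CPM (y axis) of Trim63 (circles) and Fbxo32 (diamonds) in replicates 1 to 3 (x axis) of each group. The y axis compares libraries, since levels of different genes are not comparable without their lengths. In each panel both genes put the 3 pools in the same order, and the diamonds spread further than the circles.

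Fbxo40 (ENSRNOG00000002459), a muscle-restricted F-box protein that targets the insulin signalling adaptor IRS1, had the largest ligase estimate at 1 week. The 1wk SBI pools held 136, 150 and 232 normalized CPM, and those of lactating rats 221, 263.5 and 210. At 3 weeks they were 251, 284 and 182 without lactation and 276, 277 and 278 with it. 1wk SBI replicate 3 lay among the lactating pools, and 3wk SBI replicate 3 was low. These were the pools with the highest and the lowest mature myofiber sum of their groups (146400 and 142200 normalized CPM), and the part of this in the result was not tested. The effect at 1 week was 0.42 on the log2 scale (standard error 0.19, 95% interval 0.01 to 0.83, adjusted p = 0.250, edgeR). Without 1wk SBI replicate 3 it was 0.69 (adjusted p = 0.0222, edgeR), the 1 call in 6 fits with a library left out. Adjusted p reached 0.644 in the other fits. The pool was picked for where it lay, so this fit is not a separate test. At 3 weeks the effect was 0.21 (95% interval -0.19 to 0.62, adjusted p = 0.550).

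Fbxo30 (MUSA1, ENSRNOG00000014852), an F-box ligase restrained by BMP signalling, and Cblb (ENSRNOG00000001982), a ligase linked to the loss of IRS1 in unloaded muscle, were not called in any comparison on the TMM scale. Fbxo30 ranged from 19.0 to 39.3 normalized CPM with the groups overlapping, and its estimates with lactation were -0.22 at 1 week (95% interval -0.68 to 0.25) and -0.30 at 3 weeks (95% interval -0.78 to 0.19). Cblb lay between 12.8 and 17.8 normalized CPM in all 12 libraries and varied less than most genes, with a larger SD than 15.8% of those tested. Its estimates were 0.01 at both times, with 95% intervals of -0.25 to 0.26 and -0.25 to 0.27.

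The FoxO transcription factors showed 1 high pool. Foxo1 (ENSRNOG00000013397) had 12.1, 12.5 and 12.6 normalized CPM at 1 week without lactation and 14.5, 15.6 and 13.5 with it, so that these groups did not overlap. In 3wk SBI it had 12.8, 13.2 and 16.4, and in 3wk SBI + Lac 32.7, 15.9 and 12.8. Replicate 1 of 3wk SBI + Lac was thus far above every other library. The lowest lactating pool (12.75) and the lowest non-lactating pool (12.77) of 3 weeks were nearly equal. The log2 fold change at 3 weeks, 0.54 (standard error 0.26, adjusted p = 0.255, edgeR), came to 0.03 without that pool. At 1 week it was 0.22 (95% interval -0.33 to 0.77, adjusted p = 0.669).

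Foxo3 (ENSRNOG00000000299), the FoxO factor best known for driving autophagy genes in muscle, was highest in the same pool. It lay between 21.8 and 26.1 normalized CPM in the 6 libraries of 1 week, with an effect of -0.03 (95% interval -0.31 to 0.25). At 3 weeks it had 22.6, 24.3 and 27.8 without lactation and 39.3, 28.4 and 27.6 with it. The highest non-lactating pool lay just above the lowest lactating one. The effect was 0.35 (standard error 0.13, 95% interval 0.06 to 0.63, adjusted p = 0.157, edgeR), which came to 0.16 once 3wk SBI + Lac replicate 1 was left out. That pool also had the highest sum of the 4 milk-producing epithelium markers, 30.1 normalized CPM against 0.22 to 8.68 in the other 11 libraries, and their part in the FoxO values was not tested.

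Map1lc3b (ENSRNOG00000017905), which encodes the LC3 protein that is fixed to autophagosome membranes, was the gene called with lactation. In 3wk SBI its normalized CPM were 40.7, 40.2 and 36.2, and lactating rats of that time had 55.1, 51.4 and 49.0. Every lactating pool lay above every non-lactating one, and the log2 fold change was 0.42, a 1.34-fold difference (standard error 0.10, 95% interval 0.21 to 0.62, adjusted p = 0.0370, edgeR). At 1 week it had 40.9, 45.4 and 43.5 without and 54.2, 51.3 and 46.8 with lactation, again with no overlap, and a log2 fold change of 0.23 (standard error 0.09, 95% interval 0.03 to 0.43, adjusted p = 0.203). The difference between both effects, 0.19 (95% interval -0.10 to 0.47), had an adjusted p of 0.999. The 3-week call was kept without 3wk SBI replicate 1 (adjusted p = 0.0416) and lost without any 1 of the other 5 pools (adjusted p from 0.0525 to 0.131, log2 fold change 0.36 to 0.47). It was also lost in edgeR on the 6 libraries of 3 weeks (log2 fold change 0.40, adjusted p = 0.0781) and with the replicate number as a block (0.41, adjusted p = 0.0613), whereas DESeq2 called it on 12 libraries (adjusted p = 0.00337) and on the 6 of 3 weeks (adjusted p = 0.0443). Scaled to the mature myofiber markers, the log2 fold change was -0.38 at 1 week and -0.04 at 3 weeks.

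Bnip3 (ENSRNOG00000017243), a FoxO target and hypoxia-responsive gene whose product marks mitochondria for autophagy, was higher in each lactating pool than in any non-lactating pool of its time without passing the adjusted threshold. At 1 week it had 184, 219 and 242.5 normalized CPM without and 294, 346 and 258 with lactation. At 3 weeks the values were 398, 361 and 259 without and 404.5, 428 and 471 with lactation. At 3 weeks, 3wk SBI replicate 1 came close to the lactating pools. The log2 fold change was 0.48 at 1 week (standard error 0.16, 95% interval 0.13 to 0.83, adjusted p = 0.138, edgeR), where DESeq2 on the 6 libraries of 1 week called it (adjusted p = 0.0254). At 3 weeks it was 0.36 (standard error 0.16, 95% interval 0.01 to 0.71, adjusted p = 0.230). On the scale of the mature myofiber markers both estimates lay below 0, at -0.12 and -0.07.

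Bnip3 was also higher at 3 weeks than at 1 week. The time comparisons mix time with counting, since the 1-week values are whole counts and the 3-week values carry decimals, and 30 genes with 0 counts throughout the 1-week libraries summed to 100 or more at 3 weeks. They also share libraries with the lactation comparisons. Without lactation 2 of the 10 genes were called, Bnip3 and Gadd45a, against 5.05% of all genes, and 4 did not overlap (Foxo1, Bnip3, Map1lc3b and Gadd45a) against 21.6%. With lactation 0 of the 10 were called in edgeR, against 2.01% of all genes, and 3 had an unadjusted p under 0.05, against 18.1%. DESeq2 called 2 with lactation (Bnip3 and Gadd45a), against 6.02% of all genes, and 4 (Fbxo40, Foxo3, Bnip3 and Gadd45a) did not overlap, against 28.1%. Bnip3 rose by 0.66 on the log2 scale without lactation (standard error 0.16, adjusted p = 0.0332, edgeR), a call kept in 2 of 6 fits with a library left out, those without 1wk SBI replicate 3 or 3wk SBI replicate 3. With lactation the estimate was 0.54 (adjusted p = 0.103).

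Gadd45a (ENSRNOG00000005615), a stress gene induced in denervated and immobilized muscle downstream of ATF4, had the largest change of the 10. It had 78.2, 94.5 and 47.8 normalized CPM without lactation at 1 week, and 55.6, 42.9 and 43.3 with it. In 3wk SBI it had 22.4, 23.8 and 29.0, and in 3wk SBI + Lac 27.2, 20.7 and 28.9. All 6 libraries of 1 week lay above all 6 of 3 weeks. Without lactation it fell by 1.54 on the log2 scale from 1 to 3 weeks (standard error 0.22, adjusted p = 0.00517, edgeR), to 0.344 of its level, and the call was kept whichever library was left out (adjusted p up to 0.0361). With lactation the log2 fold change was -0.90 (standard error 0.22, adjusted p = 0.0573).

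For lactation at 1 week, Gadd45a had an estimate of -0.64 (standard error 0.21, 95% interval -1.10 to -0.18, adjusted p = 0.137, edgeR), and 1wk SBI replicate 3 lay between the lactating pools. Without that library the log2 fold change was -0.87 (adjusted p = 0.00871, edgeR), the 1 call in 6 fits with a library left out. Adjusted p reached 0.415 in the other fits, with a log2 fold change as small as -0.42. The pool was picked for where it lay, so this fit is not a separate test. At 3 weeks the estimate was 0.00 (95% interval -0.48 to 0.49). The difference between the lactation effects of both times was 0.64 (95% interval -0.03 to 1.31, adjusted p = 0.999). The summed regenerating myofiber markers were likewise higher at 1 week (777 to 3468 normalized CPM) than at 3 weeks (166 to 741), and their part in the result was not tested. At 3 weeks their sum was 220 to 741 without and 166 to 198 with lactation, where Gadd45a ran from 22.42 to 28.95 and from 20.68 to 28.91. Within 1wk SBI, replicate 2 had the highest Gadd45a and the lowest sum of these markers, 1509. The single markers differed in this. Myh3 (705) and Myh8 (472.7), which make up most of the sum, were lowest in that pool. Myog (104.6) and Mymx (27.67) were highest there, and Mymk and Ncam1 lay between the other pools.

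**Figure D4:**
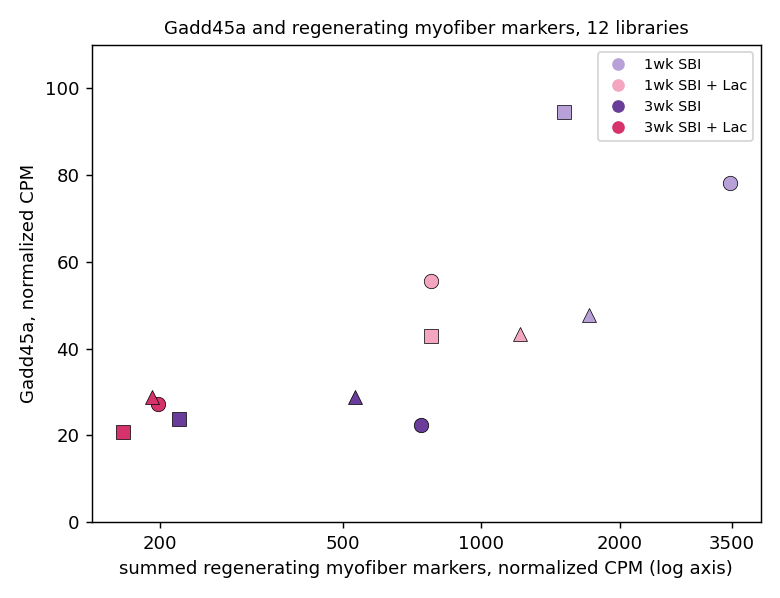
Normalized CPM of Gadd45a (y axis) against the summed normalized CPM of 6 regenerating myofiber markers (x axis, log scale) in 12 libraries, coloured by group, with circles, squares and triangles for replicates 1, 2 and 3. The 1-week libraries, 42.9 to 94.5, lie above the 3-week libraries, 20.7 to 29.0. The 1wk SBI pool with the highest Gadd45a had the lowest marker sum of its group, although Myog and Mymx were highest in that pool.

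The direction of most lactation estimates depended on how the libraries were scaled. When library sizes were taken from the mature myofiber markers in place of TMM, the median log2 fold change of all genes went to -0.60 at 1 week and -0.49 at 3 weeks, and that of the 10 genes to -0.40 and -0.33, less far below 0 than all genes. At 1 week all 10 estimates were then below 0, and Fbxo30, Foxo3, Gadd45a and Cblb passed as lower with lactation, with Gadd45a at -1.31 (adjusted p = 0.0198, edgeR). On this scale 37.9% of all genes passed at 1 week, 37.8% as lower, so that 4 of 10 is near the share of all genes. At 3 weeks 9 of the 10 were below 0 and none passed, against 15.1% of all genes, with Map1lc3b at -0.04 (adjusted p = 0.873) and Foxo1 at 0.04. The fall of Gadd45a without lactation was -2.21 (adjusted p = 0.00217) on this scale, and that with lactation -1.35 (adjusted p = 0.0299), whereas Bnip3 went to 0.03 without lactation and was not called. Fbxo30 (-0.77, adjusted p = 0.0461) and Map1lc3b (-0.77, adjusted p = 0.00774) were then called as lower at 3 weeks without lactation, which with Gadd45a made 3 of the 10, against 39.1% of all genes called and 38.9% called lower. With lactation Gadd45a was the 1 call, against 14.0% of all genes.

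**Figure D5:**
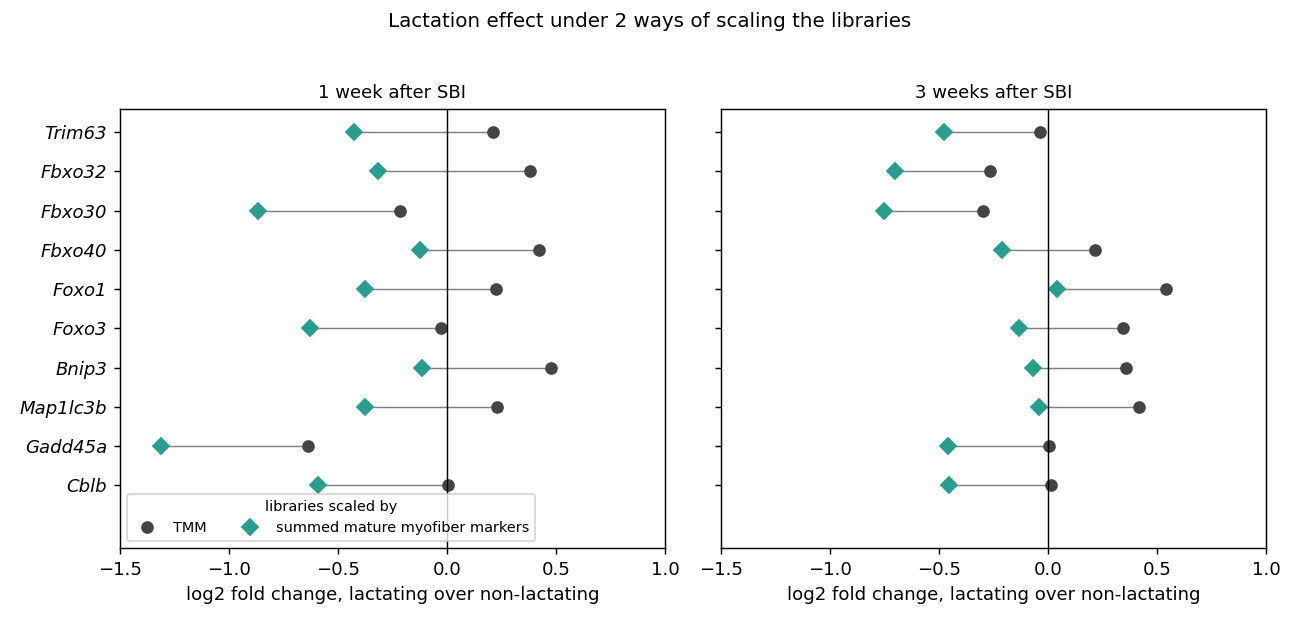
Log2 fold change of lactating over non-lactating rats (x axis) for the 10 genes (y axis), with libraries scaled by TMM (circles) or to summed mature myofiber markers (diamonds). All 10 diamonds lie below 0 at 1 week and 9 of 10 at 3 weeks, and the shift is close to that of the median of all genes, -0.60 and -0.49.

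Around these genes, 27 other muscle ubiquitin ligases and SCF or cullin parts had no call at 1 week (median log2 fold change 0.14) and 1 at 3 weeks (median 0.07), against 0.569% and 2.54% of all genes. The 1 of 27 is near the share of all genes. The called gene was Trim54 (MuRF3), a relative of Trim63 at microtubules and the Z-disc, at 3 weeks with 207 ± 42.9 normalized CPM without and 326 ± 16.8 with lactation (SD over 3 pools) and a difference of 0.66 on the log2 scale (standard error 0.15, adjusted p = 0.0344, edgeR). Of 20 entries for FoxO relatives and their upstream kinases and cofactors, which count Ep300 under 2 identifiers, 0 were called at 1 week (median 0.15) and 1 at 3 weeks (median 0.19), where 2.54% of all genes were called. Pik3r1, the regulatory subunit of PI3-kinase, had 52.7 ± 8.17 and 89.8 ± 18.6 normalized CPM at 3 weeks (log2 fold change 0.77 with standard error 0.16, adjusted p = 0.0253). Among 28 genes of the autophagy and mitophagy machinery 0 were called at either time, with 22 and 20 higher estimates on the TMM scale. Their medians were 0.17 and 0.06, beside -0.0038 and -0.0192 over all genes. Scaled to the myofiber markers, the median of all genes was itself -0.60 and -0.49. At 1 week the counts of calls in these lists depended on 1wk SBI replicate 3. Without that pool 2 of the ligase list, 5 of the FoxO list and 3 of the autophagy list were called higher, against 3.97% of all genes. The 2 of 27 ligase genes are not far from that share. Trim54 and Pik3r1 each kept their calls in 2 of the 6 fits that left out a library, and on the scale of myofiber markers they had estimates of 0.23 and 0.32 with no call.

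Of 18 other FoxO target genes 0 were called at 1 week (median 0.28, with 6 called higher without 1wk SBI replicate 3, in the fit where 3.97% of all genes were), and 1 higher and 1 lower at 3 weeks (median -0.05), where 2.54% of all genes were called. Eif4ebp1, which encodes the translation repressor 4E-BP1, rose from 28.1 ± 3.13 to 42.4 ± 1.47 normalized CPM at 3 weeks (log2 fold change 0.60 with standard error 0.10, adjusted p = 0.00934, edgeR), and was called in all 6 fits with a library left out. Sesn3, a sestrin that restrains mTORC1, fell from 52.5 ± 4.98 to 28.5 ± 5.98 normalized CPM (log2 fold change -0.90 with standard error 0.16, adjusted p = 0.0119), and was called in 4 of these 6 fits. On the scale of myofiber markers Sesn3 was at -1.35 (adjusted p = 0.00299) and Eif4ebp1 at 0.15 (adjusted p = 0.579). Over the whole list 8 estimates were higher and 10 lower at 3 weeks on the TMM scale, and the part of FoxO factors was not tested.

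With lactation, the list with the most calls was that of 12 glucocorticoid receptor and response genes, with 4 higher and 0 lower at 1 week (median 0.72) and 3 higher and 0 lower at 3 weeks (median 0.38), where 0.336% and 1.35% of all genes were called higher. Some of these genes were known from earlier results of these data to differ, so the count is not independent evidence. Fkbp5, a co-chaperone that is a sensitive readout of glucocorticoid action, rose from 6.54 ± 0.502 to 17.4 ± 5.32 normalized CPM at 1 week and from 15.2 ± 2.32 to 38.6 ± 7.41 at 3 weeks. Its log2 fold changes were 1.41 (adjusted p = 0.0146, edgeR) and 1.36 (adjusted p = 0.00777). Glul, the glutamine synthetase gene, rose by 1.14 (adjusted p = 0.0235) and 1.24 (adjusted p = 0.00802), and Cebpd, a transcription factor, by 0.93 (adjusted p = 0.0474) and 1.04 (adjusted p = 0.0151). Trim63 and Fbxo32, both known glucocorticoid-induced genes, had estimates of 0.21 and 0.38 at 1 week and -0.04 and -0.27 at 3 weeks, none of them called. The 1-week count of the list ran from 0 to 8 when a library was left out, with 8 without 1wk SBI replicate 3, 0 without 1wk SBI replicate 1 or 2 or 1wk SBI + Lac replicate 1, and 1 without 1wk SBI + Lac replicate 2. On the scale of myofiber markers 2 were called higher and 2 lower at either time, where 0.0822% of all genes at 1 week and 0.158% at 3 weeks were called higher, and 37.8% and 14.9% lower. Fkbp5 and Glul were called higher with lactation at both times on that scale too (Fkbp5 0.80 and 0.89, Glul 0.57 and 0.79).

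Of 16 denervation and stress genes that accompany Gadd45a, 15 were tested. With lactation 0 were called at 1 week (median -0.41) and 1 at 3 weeks (median -0.21), Gadd45g, a paralog of Gadd45a, which went from 12.7 ± 2.13 to 24.4 ± 1.34 normalized CPM (log2 fold change 0.92 with standard error 0.20, adjusted p = 0.0296, edgeR). The Gadd45g call was kept in 1 of the 6 fits with a library left out, and 2.54% of all genes were called at 3 weeks. From 1 to 3 weeks without lactation 1 rose and 7 fell (median -0.82), and with lactation 1 rose and 4 fell (median -0.52), where 2.63% and 0.678% of all genes rose and 2.42% and 1.33% fell. The following were chosen after their values were seen. Ncam1, an adhesion molecule of denervated and regenerating fibers, fell both without and with lactation, with log2 fold changes of -2.23 (adjusted p = 0.00879, edgeR) and -1.69 (adjusted p = 0.0400). Atf4, the transcription factor upstream of Gadd45a in atrophy, rose by 0.73 (adjusted p = 0.0117, edgeR) and 0.99 (adjusted p = 0.00364) over the same interval. On the scale of myofiber markers it had estimates of 0.10 and 0.51 with no call. Its part in the Gadd45a values was not tested. Myog and Ncam1 are also among the regenerating myofiber markers, so that these lists are not separate readings. The falls of this list depended on single pools. Without lactation they numbered 3 to 8 with a library left out, with 3 without 1wk SBI replicate 1 or 3wk SBI replicate 2, and with lactation 0 to 3, with at most 1 unless 1wk SBI + Lac replicate 2 was the library left out.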

How the data were processed

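The values analysed are gene counts of 12 libraries, which the authors deposited together. The 6 columns of 1 week hold whole counts, and the 6 columns of 3 weeks, as deposited, hold estimated counts with decimals (26.6% to 44% of the values per library), which were rounded to whole counts for the tests. Neither is normalized for library size. Per the submitters' processing notes Salmon was used, with no version given, and the genome build and annotation are not given in the sources used here. Libraries were prepared with a stranded messenger RNA kit. Which program made the whole counts and which the estimated counts is not stated, so the time comparisons mix time with counting. Groups and replicates were taken from the sample labels, and each column was matched to the sample that names it. All 30206 identifiers were kept as given, and 4319 of them have no symbol.

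One edgeR 4.0.16 quasi-likelihood fit (R 4.3.3, TMM scaling, filterByExpr, robust dispersion, 4 group means) covered all 12 libraries and 14599 genes, with Benjamini-Hochberg adjustment over all genes and a threshold of 0.05 on the adjusted p. Standard errors were taken as the log2 fold change over the root of F. The fit was tested on simulated data for lactation at 1 week, with a log2 change of 1.5 in 196 of 14382 genes. It recovered 148 of them (75.5%) and called 9 unchanged genes. That change is larger than the lactation estimates of the 10 genes, so this does not show how often changes of their size would be found. Means are given with the SD over 3 pools. Alternatives were RLE scaling, scaling to the mature myofiber markers, no low-count filter, DESeq2 1.42.0, only the libraries compared, a replicate block, an added log2 fold change cutoff of 1, and each library left out in turn. No library repeated another of its own group, since chi-square values per degree of freedom between pools of a group lay between 20.8 and 95.3. Libraries of different groups were not compared in this way. All 10 genes are named. Of each list, at most the 3 called genes with the largest change with lactation are named, and for Trim63 and Fbxo32 the 5 nearest genes by profile, except for items that are not reported here. The 10 genes and the lists were chosen with earlier results of these data known. In all, 6 genes stand in 2 of the lists. Promoter motifs were searched in RefSeq sequences (build GRCr8).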

Additional observations from a re-analysis of the deposited data

How the results depend on the processing

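Of 260 single-gene estimates of the 10 genes with lactation under the alternatives, 217 kept their direction and side of the threshold, 30 reversed, 7 gained and 8 lost a call, with 1 of the gained and 1 of the lost also among the reversed. With RLE scaling and without the low-count filter every count of calls among the 10 was kept, while the calls among all genes at 1 week went from 83 to 158 without the filter. Scaled to the myofiber markers, the calls among the 10 were 4 at 1 week, 0 at 3 weeks, 3 for time without lactation (Bnip3 lost, Fbxo30 and Map1lc3b gained) and 1 for time with lactation, beside 37.9%, 15.1%, 39.1% and 14.0% of all genes, and these estimates reversed: at 1 week Trim63 -0.43, Fbxo32 -0.32, Fbxo40 -0.12, Foxo1 -0.38, Bnip3 -0.12, Map1lc3b -0.38 and Cblb -0.59, and at 3 weeks Fbxo40 -0.21, Foxo3 -0.13, Bnip3 -0.0693, Map1lc3b -0.0422, Gadd45a -0.46 and Cblb -0.45. Estimates near 0 also reversed at 3 weeks, for Gadd45a without the low-count filter (-9.71e-05), with the replicate block (-0.00888) and with only the libraries compared (-0.0114), and for Cblb with only the libraries compared (-0.00234). Other counts that moved were 2 for time with lactation by DESeq2 on 12 libraries and by DESeq2 or edgeR on only the libraries compared, 1 at 1 week by DESeq2 on the libraries compared, 0 at 3 weeks and 1 for time without lactation by edgeR on the libraries compared, and 0 at 3 weeks and 1 for time without lactation with the fold cutoff. In the same order, the calls among all genes were 864, 1371 and 1047 for time with lactation and 1372 at 1 week. They were 245 and 128 by edgeR on the libraries compared and 108 and 213 with the fold cutoff, of 13347 to 14916 genes tested. With the replicate block 0 of the 10 were called at 3 weeks (Map1lc3b 0.41, adjusted p = 0.0613, edgeR) and 1, Gadd45a, for time without lactation, against 178 and 450 of all 14599 genes. Same-numbered libraries correlated between -0.27 and -0.09 and 0 of 12 correlated best with their own number, so the numbers do not pair the pools. With a library left out, the counts ran from 0 to 2 at 1 week, 0 to 1 at 3 weeks and 1 to 3 for time without lactation. The calls among all genes in these fits ran from 2 to 921, 58 to 526 and 102 to 2083, of 14725 to 15030 tested. Estimates that changed sign ran at 1 week from -0.0936 to 0.0290 for Foxo3, -0.43 to 0.0362 for Fbxo30 and -0.0695 to 0.0576 for Cblb, and at 3 weeks from -0.16 to 0.0677 for Trim63, -0.0709 to 0.14 for Gadd45a and -0.0697 to 0.0817 for Cblb. Each group has 3 pools, and the 10 genes had at least 116 counts in each library.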
